A study of Mus musculus with 3 samples.

Results

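Cytosolic nucleic acid sensors are proteins that find viral or misplaced RNA and DNA inside the cell. The 9 genes described here were Ddx58, Ifih1, Dhx58, Mavs, Cgas, Sting1, Zbp1, Aim2 and Tbk1, taken by name from the array's gene annotation, whatever their values. They had 18 probe sets, out of 34958 probe sets that name a single gene and 18194 genes in all. Where a gene had several probe sets, the one with the highest mean log2 value stood for it, and all 9 lay above background on all 3 arrays at that probe set.

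The cells were dendritic cells (DC) sorted from spleens of healthy, untreated female C57bl/6 mice of 6 to 8 weeks. Plasmacytoid DC (pDC, labelled naïve PDC) were compared with CD11b+ conventional DC (CD11b+ cDC) and CD8+ conventional DC (CD8+ cDC), all 3 from mononuclear cells first depleted of T and B cells by magnetic beads. RNA was pooled over 5 to 8 mice per cell type and hybridised to 1 array per cell type. The design therefore has no replicate, no spread between samples and no p-value, and animals, sort and array cannot be told apart from the cell type. A level in such pooled RNA cannot separate fewer expressing cells from less RNA per cell.

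The sensors work as short relays. RIG-I (Ddx58) and MDA5 (Ifih1) bind foreign RNA and signal through MAVS on mitochondria, while LGP2 (Dhx58), which lacks the signalling domains, modulates both. The enzyme cGAS (Cgas) makes a cyclic dinucleotide from bound DNA, and STING (Sting1) on the endoplasmic reticulum receives it. Both relays reach the kinase TBK1, which switches on interferon genes through IRF3 and IRF7. AIM2 binds DNA and assembles an inflammasome, and ZBP1 binds Z-form nucleic acid and can start cell death. pDC are known for detecting nucleic acid mostly with endosomal Toll-like receptors, and several of these sensor genes are themselves induced by interferon.

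Promoter sequences of 6 of the 9 genes were examined (RefSeq, build GRCm38.p6, 250 bases before to 50 after the annotated start). No sequence was at hand for Dhx58 and Zbp1, and Sting1 was left out of the search. They were Ddx58, Ifih1, Mavs, Cgas, Aim2 and Tbk1. Each was searched on both strands for the interferon-stimulated response element (GAAA and GAAA with any 2 bases between), the gamma activated site (TTC and GAA with any 3 bases between) and the NF-kappaB site (GGGA and TTCC with any 2 bases between). Ddx58 and Ifih1, the members brightest in CD11b+ cDC by at least 2-fold over both other arrays, each held 1 match to the response element. Both matches lay after the annotated start, beginning 2 bases beyond it in Ddx58, on the reverse strand, and 32 bases beyond it in Ifih1. The stretches around them are shown with the match in capitals, 5′ to 3′ on the strand of the gene.
Ddx58 site, chr4:40239804-40239833, minus strand: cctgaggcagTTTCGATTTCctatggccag
Ifih1 site, chr2:62646206-62646233, minus strand: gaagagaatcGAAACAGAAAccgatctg

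The upstream stretches of these genes are printed beside that of Cgas, which was low in pDC and bright in both conventional subsets. No letter is in capitals because none of the 3 motifs occurs in them.
Ddx58 upstream, chr4:40239826-40240075, minus strand: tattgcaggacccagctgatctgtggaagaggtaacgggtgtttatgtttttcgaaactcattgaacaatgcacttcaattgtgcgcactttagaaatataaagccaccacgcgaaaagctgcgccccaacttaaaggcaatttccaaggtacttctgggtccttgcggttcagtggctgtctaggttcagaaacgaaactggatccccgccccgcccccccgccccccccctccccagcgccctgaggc
Ifih1 upstream, chr2:62646256-62646505, minus strand: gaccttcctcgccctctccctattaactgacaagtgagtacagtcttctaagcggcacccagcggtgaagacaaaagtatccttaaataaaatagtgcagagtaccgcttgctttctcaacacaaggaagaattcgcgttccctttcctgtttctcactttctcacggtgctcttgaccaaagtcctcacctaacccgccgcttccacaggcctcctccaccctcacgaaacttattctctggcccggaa
Cgas upstream, chr9:78443238-78443487, minus strand: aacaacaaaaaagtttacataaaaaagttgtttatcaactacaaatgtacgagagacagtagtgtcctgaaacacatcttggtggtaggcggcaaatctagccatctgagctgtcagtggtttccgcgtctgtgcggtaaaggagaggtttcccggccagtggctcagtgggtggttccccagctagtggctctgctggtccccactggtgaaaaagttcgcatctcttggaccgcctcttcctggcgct

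The response element letters were found in 1131 of 32851 promoters of this length (3.44%). The gamma activated site was found in 8.30% and the NF-kappaB site in 1.47% of them, and neither occurred in the windows of the 6 members. A match describes the letters and is no proof of a bound factor.

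Signals are intensities on the deposited linear scale. The background level, 111, was the 95th percentile of probe sets for odorant, pheromone and taste receptors. A gene counts as higher on an array where its signal is above background and at least 2-fold that of the other array. Where the dimmer value lies below background, the fold is taken against that level and given as "at least". Levels of different genes are not compared, since probe sets differ in brightness.

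Before the members, the arrays were checked against their labels. All 15 measured pDC markers were higher in pDC than in both other arrays. Of 9 CD11b+ cDC markers, 6 were 2-fold brighter in CD11b+ cDC than in both others, while Cd4, Mgl2 and Cd209a were brightest in pDC. All 10 CD8+ cDC markers were higher in CD8+ cDC than in pDC, and 9 of 10 were higher than in CD11b+ cDC. Of 8 T cell markers 3, and of 9 B cell markers 5, were above background on some array. They included Cd28 (4830) and Cd79b (10103) in pDC, Cd5 (2832) in CD11b+ cDC, and Ms4a1 in CD11b+ cDC (11046.5) and CD8+ cDC (19147), while Cd3e, Cd3d, Cd3g, Cd79a and Pax5 were below it throughout. Macrophage and monocyte markers were above background for 10 of 10 genes on each array, with summed signals of 105070.5 in pDC against 367405 in CD11b+ cDC and 152619 in CD8+ cDC. For Actb, the ratio of 3′ to 5′ control signals, a sign of RNA length, was 5.71, 2.91 and 4.08 in that order, and for Gapdh 16.2, 9.68 and 17.6.

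Of the 9 members, 5 were higher in CD11b+ cDC than in pDC, namely Ddx58, Ifih1, Dhx58, Cgas and Zbp1, and 0 were higher in pDC. Over all genes with signal above background in the pair, 14.3% were higher in CD11b+ cDC and 15.0% in pDC, or 29.3% in either direction. The median log2 difference (pDC minus CD11b+ cDC) was -1.16 over the members and 0.01 over all 10793 such genes. Between pDC and CD8+ cDC, Sting1 was higher in pDC (16.0% of all genes were) and Cgas and Zbp1 were higher in CD8+ cDC (14.8%), so that 3 of 9 members were called where 30.8% of genes were. The median difference (pDC minus CD8+ cDC) was -0.16 over members and 0.00 over all genes. With arrays scaled on hybridization spike-ins it was 0.38 over members and 0.65 over all genes, so the members still lay below all genes. Between the conventional subsets, Ddx58, Ifih1 and Sting1 were higher in CD11b+ cDC (10.3% of all genes), and 0 members were higher in CD8+ cDC (9.84%), with 20.1% of genes called in either direction. Taking all 3 arrays at once, Ddx58 and Ifih1 lay 2-fold above both others in CD11b+ cDC (5.00% of genes), Cgas and Zbp1 2-fold below both in pDC (8.56%) and Sting1 2-fold below both in CD8+ cDC (4.34%). None of the 9 lay 2-fold below both in CD11b+ cDC, where 2.98% of genes did. The 3 comparisons share arrays, so their counts are not separate evidence.

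**Figure D1:**
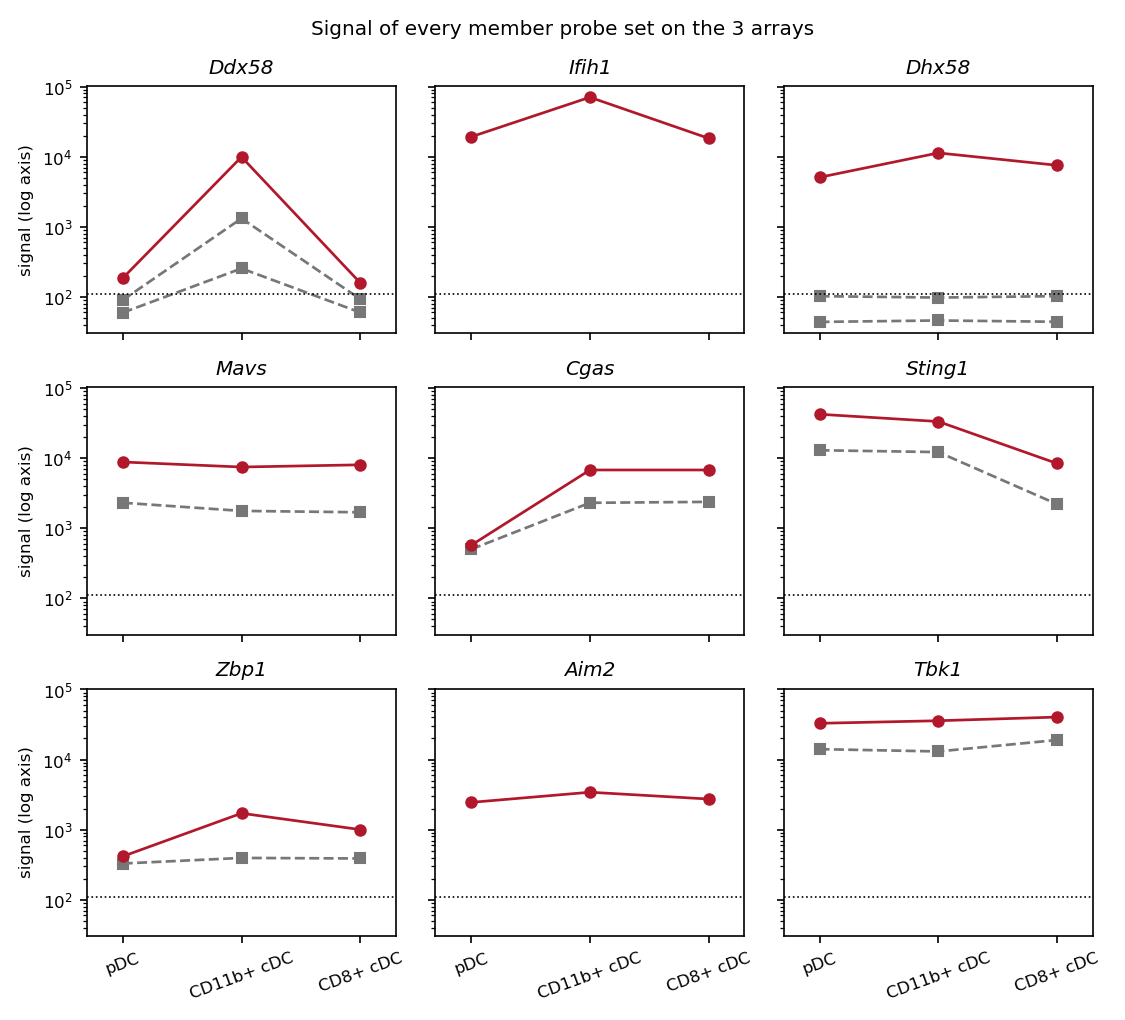
Signal of each of the 18 member probe sets (vertical axis, log scale, intensity units) on the 3 arrays (horizontal axis), 1 panel per gene. Red circles are the probe set read for the gene, grey squares its other probe sets and the dotted line the background level of 111; Ddx58 peaks in CD11b+ cDC, Cgas is low in pDC and Sting1 is low in CD8+ cDC.

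Ddx58 differed most between subsets. Its brightest probe set, 1436562_at, gave a signal of 185 in pDC against 9927 in CD11b+ cDC and 158.5 in CD8+ cDC. The CD11b+ cDC array thus stood far above the other 2, which were both near background and differed 1.17-fold. The gene was 53.6-fold higher in CD11b+ cDC than in pDC and 62.6-fold higher than in CD8+ cDC. These folds rest on dim values: with the 99th percentile as background (412), both dim arrays fall below it and the log2 difference is -4.59 in either pair.

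The size depended on the probe set, while the direction did not. Probe set 1456890_at gave 90.2, 1317 and 93.1 in the same order, which is at least 11.8-fold against either of the others. Probe set 1446457_at gave 59.6, 255 and 60.0, or at least 2.29-fold. All 3 probe sets were above background in CD11b+ cDC, and the 2 dimmer ones lay below it in the other cells. Of 10709 genes measured in the comparison of the conventional subsets, 15 (0.140%) differed more than Ddx58 toward CD11b+ cDC. Against pDC, 88 of 10793 (0.815%) did.

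Ifih1, the sensor of long RNA duplexes, was read by 1 probe set, 1426276_at. Its signals were 19213 in pDC against 70537 in CD11b+ cDC and 18280.0 in CD8+ cDC. As with Ddx58, CD11b+ cDC were high and the other 2 arrays close together (1.05-fold apart). Ifih1 was 3.67-fold higher in CD11b+ cDC than in pDC and 3.86-fold higher than in CD8+ cDC. The gene was above background in all 3 subsets.

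Dhx58, which encodes the third member of the family, gave 5082 in pDC against 11323 in CD11b+ cDC and 7545 in CD8+ cDC at probe set 1451426_at. It was 2.23-fold higher in CD11b+ cDC than in pDC, just past the size rule. The CD8+ cDC value lay between and was within 2-fold of both. Its other probe sets, 1420768_a_at (97.9 to 103) and 1420769_at (44.0 to 46.1), were below background on every array, so a single probe set carries this gene.

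Mavs, the adaptor of both RNA sensors, was nearly level. Probe set 1439185_x_at gave 8809, 7469 and 8033 in pDC, CD11b+ cDC and CD8+ cDC, and 1451176_at gave 2311, 1767 and 1689.6. The largest difference among these was 1.37-fold, between pDC and CD8+ cDC at the dimmer probe set, and no pair reached 2-fold. With spike-in scaling CD11b+ cDC were the brightest instead at 1439185_x_at alone (log2 difference, CD8+ cDC minus CD11b+ cDC, -0.89).

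Cgas was low in pDC and high in both conventional subsets. Probe set 1440299_at read 572 in pDC and 6778 in each of the others, where the 2 deposited values are identical. Such equal values recur between arrays, at 458 probe sets for the conventional pair. The gene was 11.9-fold lower in pDC than in either subset. Probe set 1453202_at showed the same order with a smaller size, at 501, 2306 and 2378, or 4.60-fold and 4.75-fold. On the pDC array the gene still stood above background at both probe sets.

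Sting1 had a pattern of its own, being low in CD8+ cDC. Probe set 1447621_s_at gave 42282 in pDC against 33296 in CD11b+ cDC and 8389 in CD8+ cDC. Probe set 1427911_at gave 12954.5, 12199 and 2206. At both, the pDC and CD11b+ cDC values were close (1.27-fold and 1.06-fold) and the CD8+ cDC value stood apart. CD8+ cDC were 5.04-fold and 5.87-fold below pDC, and 3.97-fold and 5.53-fold below CD11b+ cDC. The enzyme gene Cgas and its receptor gene Sting1 were thus low in different cells.

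Tbk1, the kinase shared by the RNA and DNA relays, differed little. Its probe set 1460315_s_at gave 32905 in pDC against 35817 in CD11b+ cDC and 40381 in CD8+ cDC, and 1422469_at gave 14075, 13064 and 19000.1. Both were brightest in CD8+ cDC, by at most 1.45-fold, and were brightest in CD11b+ cDC with arrays scaled on the spike-ins. No difference reached 2-fold.

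Aim2, the DNA sensor of the inflammasome, was also within 2-fold on the deposited scale. Probe set 1426619_at gave 2451, 3421 and 2736 in pDC, CD11b+ cDC and CD8+ cDC. The widest gap was 1.40-fold, between pDC and CD11b+ cDC. With arrays scaled on the spike-ins it was 2-fold or more higher in CD11b+ cDC than in CD8+ cDC (log2 difference, CD8+ cDC minus CD11b+ cDC, -1.32).

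For Zbp1 the probe sets disagreed. The brighter, 1429947_a_at, gave 416 in pDC against 1714 in CD11b+ cDC and 1003 in CD8+ cDC, so pDC was 4.12-fold and 2.41-fold below the others. The other, 1419604_at, gave 329, 395 and 388, where the same order spanned 1.20-fold. Read at that probe set, Zbp1 was not called in any pair, and its calls therefore rest on 1 probe set.

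**Figure D2:**
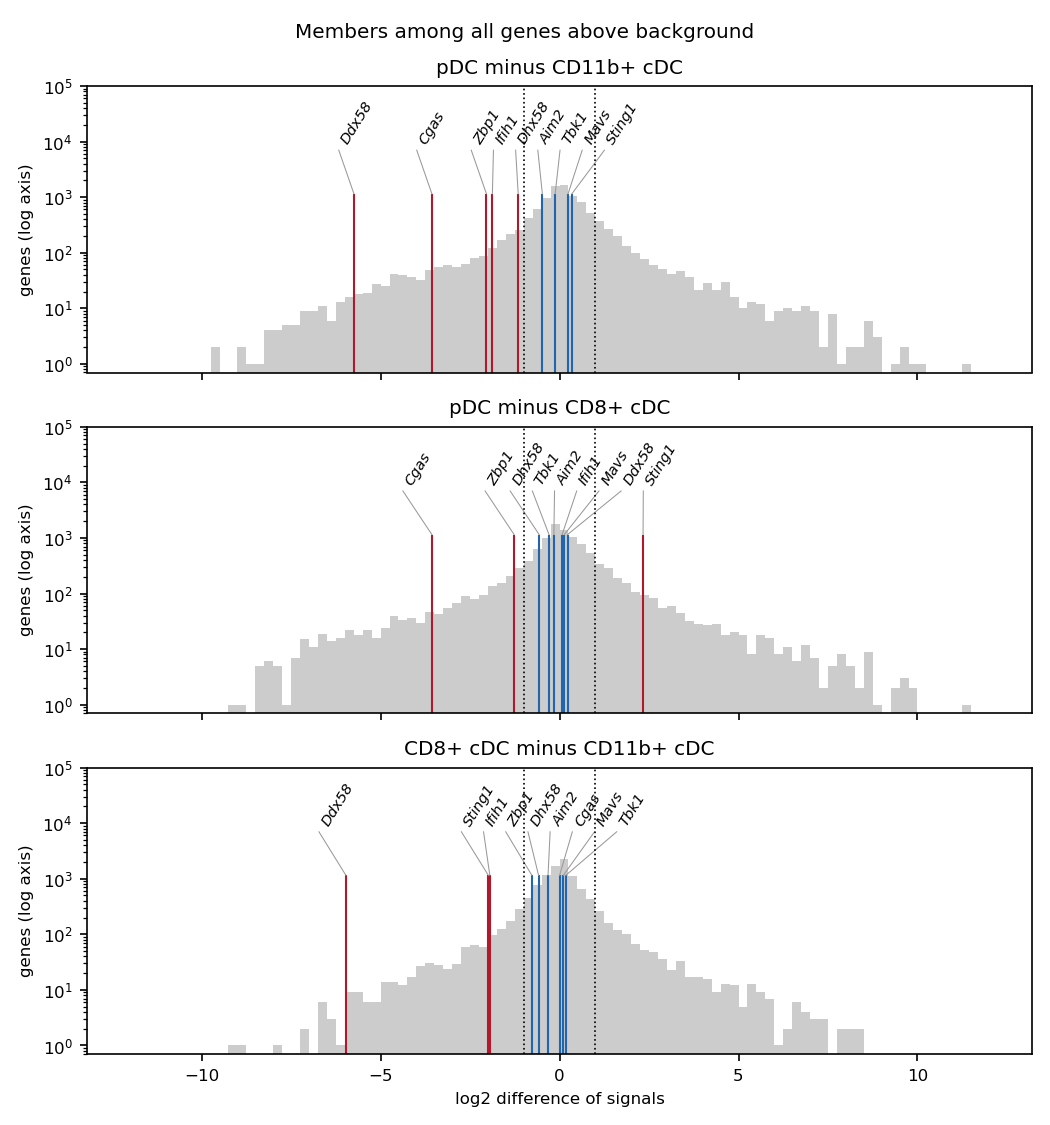
Grey bars count genes above background on either array (vertical axis, log scale) by log2 difference of signals (horizontal axis) for each pair of arrays; coloured lines mark the 9 members, red at 2-fold or more and blue within 2-fold, and dotted lines mark 2-fold. Ddx58 lies far out on the CD11b+ cDC side in the pairs that include CD11b+ cDC, at -5.74 and -5.97, while Mavs and Tbk1 lie near 0 in each pair.

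Genes with the most similar profile were sought over the 3 arrays, by Euclidean distance between mean-centred log2 signals, for members spanning at least 4-fold. Closest to Ddx58 among 8808 genes were Gm32633 (distance 0.14), the interferon-induced chaperone gene Rtp4 (0.45) and Pram1 (0.55). Rtp4 gave signals of 545, 35399 and 365 in pDC, CD11b+ cDC and CD8+ cDC. Closest to Cgas were 5430437J10Rik (0.02), Nostrin (0.03) and the kinetochore gene Zwilch (0.04). For Sting1 they were Gprasp1 (0.05), Rcan3 (0.10) and Rbm43 (0.13), and for Zbp1 the chemokine gene Ccl6 (0.04), Samd1 (0.05) and Myadm (0.05). With 3 arrays many genes match closely, so these distances are a description.

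Of 17 measured genes that pass the signal on from the adaptors, 2 were higher in pDC than in CD11b+ cDC, 3 were lower and 12 were within 2-fold, with a median log2 difference of -0.04. These counts lie near the shares of all genes (15.0% higher and 14.3% lower in pDC). Ikbke, a kinase closely related to Tbk1, gave 1628 in pDC against 301.5 in CD11b+ cDC and 247 in CD8+ cDC. It was thus 5.40-fold and 6.59-fold higher in pDC, in contrast to Tbk1. Irf7, the transcription factor of the pDC interferon response, was 3.69-fold and 4.78-fold higher in pDC, whereas Irf3 gave 29547, 29213 and 26614 in pDC, CD11b+ cDC and CD8+ cDC. On the other side, Tank, a scaffold that binds TBK1, was 3.90-fold lower in pDC than in CD11b+ cDC and 2.64-fold below CD8+ cDC. Traf5 was 2.44-fold and 2.58-fold lower, and Traf2 was 2.13-fold lower than in CD11b+ cDC. With spike-in scaling 5 of the 17 were higher and 0 lower in pDC than in CD8+ cDC, so the calls of Tank and Traf5 in that pair were lost. Of all 10067 genes, 3383 were then higher and 976 lower in pDC. Between the conventional subsets 0 of the 17 differed by 2-fold on the deposited scale (20.1% of all genes did). With spike-in scaling 10 were higher in CD11b+ cDC, where 4773 of all 10512 genes were.

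Of 14 cofactors of the RNA sensors above background, 2 were higher and 2 lower in pDC than in CD11b+ cDC, and the same numbers held against CD8+ cDC. These shares lie near those of all genes (29.3% and 30.8% called). With spike-in scaling 1 was higher and 4 lower in pDC than in CD11b+ cDC, where 1132 and 2127 of all 10686 genes were. Against CD8+ cDC 3 were then higher and 1 lower in pDC, where 3383 and 976 of all 10067 genes were. Trim25, a ubiquitin ligase that activates RIG-I, gave 151818 in pDC against 56073 in CD11b+ cDC and 48678 in CD8+ cDC, or 2.71-fold and 3.12-fold higher in pDC. Trim65, a ligase for MDA5, was 2.28-fold and 2.55-fold higher in pDC. Both were lowest in CD8+ cDC. The helicase gene Ddx60 followed Ddx58, with 188 in pDC against 2992 in CD11b+ cDC and 93.7, below background, in CD8+ cDC. Hdac6 was 2.28-fold and 2.94-fold lower in pDC, and Prkra, which encodes PACT, stood in CD8+ cDC 3.29-fold above pDC and 3.52-fold above CD11b+ cDC. With spike-in scaling 0 of the 14 were higher and 8 lower in CD8+ cDC than in CD11b+ cDC, where 405 and 4773 of all 10512 genes were. The call of Prkra in that pair was thus lost. So were those of Hdac6 against CD8+ cDC and Trim65 against CD11b+ cDC. Rnf135, encoding the RIG-I ligase Riplet, differed by less than 2-fold.

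Of 18 genes that restrain RIG-I or MAVS, 1 was higher and 2 lower in pDC than in CD11b+ cDC, against 15.0% and 14.3% of all genes. Rnf122, a ligase that marks RIG-I for degradation, gave 28492 in pDC against 1804 in CD11b+ cDC and 815 in CD8+ cDC. It was 15.8-fold and 35.0-fold higher in pDC. Itch, a ligase that degrades MAVS, was 3.83-fold lower in pDC than in CD11b+ cDC and 2.26-fold lower than in CD8+ cDC. Smurf2 was 2.05-fold lower than in CD11b+ cDC. Nlrx1, a mitochondrial inhibitor, was 2.14-fold higher in CD11b+ cDC than in CD8+ cDC. With spike-in scaling 4 of the 18 were higher and 0 lower in pDC than in CD8+ cDC, so the call of Itch in that pair was lost. Of all 10067 genes, 3383 were then higher and 976 lower in pDC.

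Among partners of cGAS and STING, 6 of 18 were higher and 1 lower in pDC than in CD11b+ cDC, with a median log2 difference of 0.67. Of all genes 15.0% were higher and 14.3% lower. With spike-in scaling 2, Insig1 and Rhbdf2, were higher and 1 lower, where 1132 and 2127 of all 10686 genes were. Rhbdf2, encoding iRhom2, which aids STING trafficking, gave 7864 in pDC against 407 in CD11b+ cDC and 859 in CD8+ cDC. It was 19.3-fold and 9.15-fold higher in pDC. Insig1, an ER protein that helps ubiquitinate STING, was 8.07-fold and 6.27-fold higher, and Trim56 2.01-fold and 3.78-fold. The channel subunit genes Lrrc8a and Lrrc8c went opposite ways: Lrrc8a was 2.14-fold higher and Lrrc8c 2.14-fold lower in pDC than in CD11b+ cDC. Ttll4, an enzyme that adds glutamate chains and acts on cGAS, was brightest in CD8+ cDC, 5.10-fold above CD11b+ cDC and 2.35-fold above pDC. Its call against pDC was lost with spike-in scaling. Ssr2 was 2.17-fold higher in pDC than in CD11b+ cDC.

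Enzymes that remove or modify nucleic acids included 1 gene higher and 3 lower in pDC than in CD11b+ cDC, of 14, against 15.0% and 14.3% of all genes. Dnase1l3, a nuclease for DNA in microparticles, gave 6159 in pDC against 58582 in CD11b+ cDC and 94859 in CD8+ cDC. It was 9.51-fold and 15.4-fold lower in pDC. Samhd1, which depletes nucleotides, and Banf1, which shields DNA from cGAS, were 2.44-fold and 2.27-fold lower in pDC than in CD11b+ cDC. The endosomal nuclease gene Pld4 was 2.02-fold and 2.79-fold higher in pDC. Its relative Pld3 was lowest in CD8+ cDC, 2.10-fold below pDC and 2.60-fold below CD11b+ cDC, while the nuclease gene Dnase2a was 2.33-fold higher there than in CD11b+ cDC. With spike-in scaling 0 of the list were higher in pDC than in CD11b+ cDC (1132 of all 10686 genes were). In CD8+ cDC 0 were then higher than in CD11b+ cDC (405 of 10512). The calls of Pld4 and Dnase2a against CD11b+ cDC were thus lost.

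**Figure D3:**
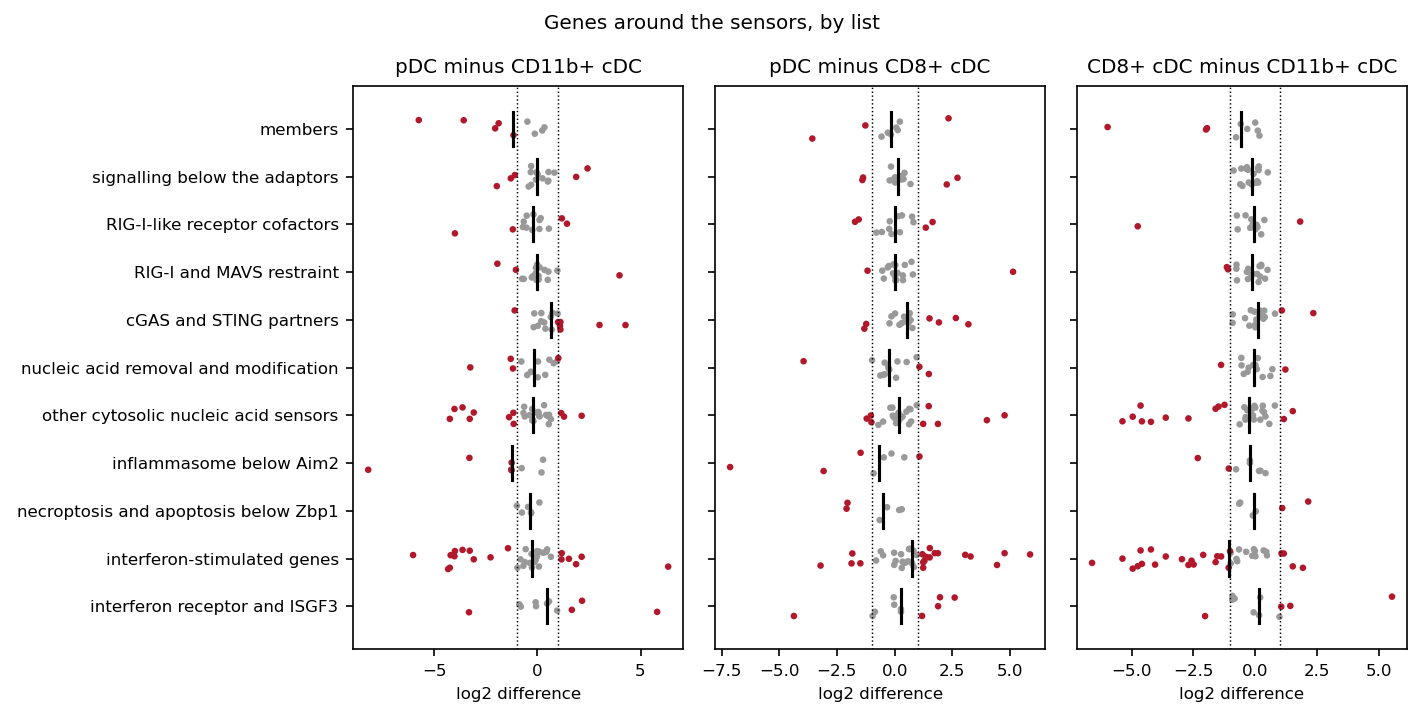
Log2 difference of signals (horizontal axis) for each gene above background in 11 lists (vertical axis, points spread for legibility), 1 panel per pair of cell types; red points reached 2-fold, grey points did not, black bars are list medians and dotted lines mark 2-fold. On the deposited scale the medians of the signalling, cofactor and restraint lists lie between -0.21 and 0.13 in each pair, whereas that of the interferon-stimulated genes lies at -1.05 for CD8+ cDC minus CD11b+ cDC.

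Of 30 other cytosolic sensors above background, 7 were at least 2-fold brighter in CD11b+ cDC than in both others, against 5.00% of all genes, and 23 were not. They were Oas1a, Oas1b, Oas2 and Oas3, whose proteins activate RNase L or resemble those that do, the RNA-binding genes Ifit1 and Ifit3, and the DNA end-binding gene Xrcc5. Oas2 gave 495 in pDC against 9349 in CD11b+ cDC and 503 in CD8+ cDC, and Oas1a gave 5031, 42542 and 1372. Ifit1 was 16.2-fold higher in CD11b+ cDC than in pDC and at least 24.9-fold higher than in CD8+ cDC. Against these, Oasl1 was lowest in CD11b+ cDC, 4.43-fold below pDC and 2.87-fold below CD8+ cDC. Mndal, a relative of Aim2 in the PYHIN family, gave 177498, 72374 and 11134, and near-identical family members may share its probes. Xrcc6, whose protein pairs with that of Xrcc5, was 2.23-fold and 2.78-fold higher in pDC than in CD11b+ cDC and CD8+ cDC. Because Xrcc5 was dim, no contrast between these partner genes is drawn. Polr3c, Mre11a and Rad50 were 2.32-fold, 2.04-fold and 2.01-fold lower in pDC than in CD8+ cDC. The kinase gene Eif2ak2, encoding PKR, was 2.23-fold higher in CD8+ cDC than in CD11b+ cDC. With spike-in scaling 10 of the list were higher and 0 lower in pDC than in CD8+ cDC, so the calls of Polr3c, Mre11a and Rad50 were lost. In the conventional pair 0 were then higher in CD8+ cDC, so those of Eif2ak2 and Oasl1 were lost too. Between pDC and CD11b+ cDC 1 was then higher and 9 lower in pDC, in place of 3 and 8, with the calls of Xrcc6 and Mndal lost. Of all 10067 genes, 3383 were higher and 976 lower in pDC than in CD8+ cDC on that scale. Against CD11b+ cDC 1132 of 10686 were higher and 2127 lower in pDC. In the conventional pair 405 of 10512 were higher in CD8+ cDC. The helicase genes Ddx41, Ddx3x, Dhx9 and Dhx36 stayed within 2-fold in all 3 pairs.

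The interferon-stimulated genes were then counted, since Ddx58, Ifih1, Dhx58 and Zbp1 belong to that class. Of 36 measured, 9 were 2-fold brighter in CD11b+ cDC than in both other arrays (5.00% of all genes), 4 in pDC (10.4%) and 1 in CD8+ cDC (6.01%). The 9 were Isg20, Ifit1, Ifit3, Rtp4, Oas1a, Oas2, Oas3, Ifitm3 and Ddx60. Of these, Ifit1, Ifit3, Oas1a, Oas2 and Oas3 were already counted among the other sensors and Ddx60 among the cofactors. The counts of these lists are therefore not separate evidence. The 4 of pDC were Mx2, Ifi47, Bst2 and Lgals3bp, and that of CD8+ cDC was Mx1. A further pattern was low signal in CD8+ cDC alone, as for Sting1: 10 genes lay 2-fold below both others there (4.34% of all genes), among them Oasl2, Ifi27l2a, Cmpk2, Rsad2 and Usp18. Gbp2 was 18.4-fold and 9.26-fold lower in pDC than in CD11b+ cDC and CD8+ cDC, and Cxcl10 was 3.65-fold lower than in CD8+ cDC. Trim30a was lowest in CD11b+ cDC, 3.67-fold below pDC and 2.09-fold below CD8+ cDC. Oasl2 gave 9999.7 in pDC against 15238 in CD11b+ cDC and 369 in CD8+ cDC. Between the conventional subsets 19 were higher in CD11b+ cDC and 4 in CD8+ cDC (median log2 difference, CD8+ cDC minus CD11b+ cDC, -1.05). Of all genes 10.3% and 9.84% were. With spike-in scaling the counts were 28 and 0, but 4773 and 405 of all 10512 genes were then called in these directions. Of the 28 genes of this list with a promoter sequence, 15 held the response element letters, compared with 1079 of 27025 genes in all (3.99%). Of the 9 highest in CD11b+ cDC, 7 had a sequence and 6 held them.

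**Figure D4:**
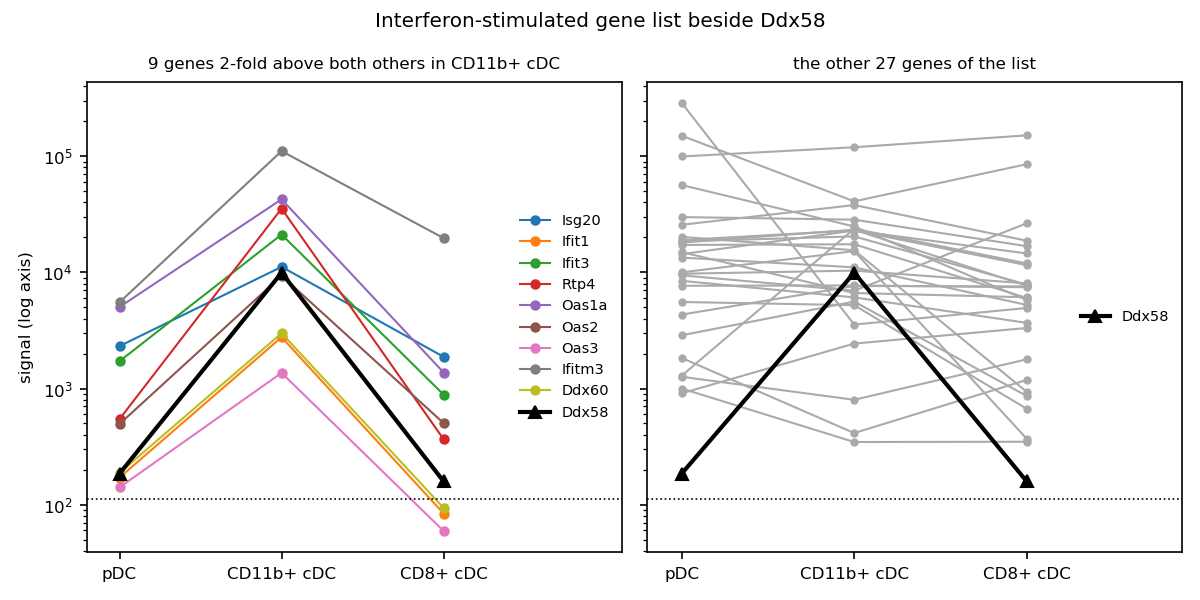
Signals (vertical axis, log scale, intensity units) of the 36 measured interferon-stimulated genes on the 3 arrays; coloured lines on the left are the 9 genes 2-fold above both other arrays in CD11b+ cDC, grey lines on the right the remaining genes, black triangles Ddx58 and the dotted line the background level. The coloured genes were chosen by their peak in CD11b+ cDC, so the peak they share with Ddx58 follows from the choice and is no finding.

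The interferon genes themselves, Ifnb1 and 8 others, lay below background on all 3 arrays. Their receptor was brightest in pDC: Ifnar1 was 4.49-fold and Ifnar2 3.18-fold higher than in CD11b+ cDC, and 2.28-fold and 6.06-fold higher than in CD8+ cDC. Stat2, part of the factor that binds the response element, gave 3513, 1809 and 954 in pDC, CD11b+ cDC and CD8+ cDC, and its partner gene Irf9 gave 23385, 24736 and 23682. The interferon-gamma receptor gene Ifngr1 was 9.93-fold and 20.6-fold lower in pDC. Irf8, which encodes a transcription factor of DC development, was lowest in CD11b+ cDC, 55.9-fold below pDC and 46.3-fold below CD8+ cDC. The phosphatase gene Ptpn6 was lowest in CD8+ cDC, by 3.90-fold against pDC and 4.08-fold against CD11b+ cDC, and the kinase gene Tyk2 was 2.67-fold higher there than in CD11b+ cDC. The call of Tyk2 was lost with spike-in scaling.

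Some markers of other cells were brightest in CD11b+ cDC and others were not. The macrophage and monocyte genes Adgre1, Csf1r and Lyz2 gave 70516, 64906 and 109149 in CD11b+ cDC and at most 3196, 11778 and 35561 in the other arrays, and these 3 of the 10 markers in the list were 2-fold brighter there than in either. Cd163, of the same list, was 2-fold brighter in pDC than in both others. Neutrophil markers summed to 8929 in CD11b+ cDC, 1847 in pDC and 1356 in CD8+ cDC, and B cell markers to 96393, 11809 and 21502 in that order. Most of the B cell sum in CD11b+ cDC came from Cd22, while Ms4a1 was brightest in CD8+ cDC (19147) and Cd79b in pDC (10103). In CD11b+ cDC the brightest of these were S100a8 (4393) and Cd22 (78539.6), and 5 of 9 B cell markers and 7 of 8 neutrophil markers were above background there. The other arrays had similar numbers above background, with 4 B cell and 7 neutrophil markers in pDC, and 4 and 6 in CD8+ cDC. In brightness they differed: 5 neutrophil markers (S100a8, S100a9, Mpo, Camp and Ltf) were 2-fold above both others in CD11b+ cDC. So were 3 B cell markers (Cd22, Blk and Cr2). In pDC 0 neutrophil markers and 1 B cell marker, Cd79b, were 2-fold above both others, and in CD8+ cDC 0 of either list. Red cell and platelet markers summed to 4810 in CD11b+ cDC, 1306 in pDC and 1787 in CD8+ cDC, with Pf4 and Ppbp 2-fold above both others in CD11b+ cDC. CD11b+ cDC themselves may express several of these genes. Their part in the signals of Ddx58 and the genes like it was not tested.

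Of 8 inflammasome genes downstream of Aim2, 5 were lower and 0 higher in pDC than in CD11b+ cDC (median log2 difference -1.25), where 14.3% of all genes were lower in pDC. Against CD8+ cDC 3 were lower and 1, Casp1, was higher in pDC (14.8% and 16.0% of all genes). With spike-in scaling 2 were lower and 2 higher in pDC in that pair, where 976 and 3383 of all 10067 genes were. In both pairs Aim2, its adaptor gene Pycard, Casp4 and Ninj1 were within 2-fold on the deposited scale. Il1b gave 166 in pDC against 48684 in CD11b+ cDC and 23205 in CD8+ cDC. Il18 was 9.79-fold and 8.44-fold lower in pDC, and Gsdmd, the pore-forming protein gene, 2.40-fold and 2.78-fold lower. The call of Gsdmd against CD8+ cDC was lost with spike-in scaling. Casp1, the inflammasome protease gene, gave 8257, 19613 and 3924, and so was high in CD11b+ cDC and lowest in CD8+ cDC. Nlrp3 was 2.37-fold lower in pDC than in CD11b+ cDC.

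Of 6 genes acting below Zbp1, 0 differed by 2-fold between pDC and CD11b+ cDC, where 29.3% of all genes did. In CD8+ cDC 2 were 2-fold brighter than in both others (6.01% of all genes). Ripk3, the necroptosis kinase gene, gave 1567 in pDC against 3114 in CD11b+ cDC and 6645 in CD8+ cDC. Casp6 stood in CD8+ cDC 4.12-fold above pDC and 4.42-fold above CD11b+ cDC. Mlkl, the executor of necroptosis, was near background at 106 to 140 on the 3 arrays. With spike-in scaling 1 of the 6 was higher in CD8+ cDC than in CD11b+ cDC and 3 were lower. Of all 10512 genes, 405 were then higher and 4773 lower in CD8+ cDC.

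Of 10 endosomal receptor genes above background, 1 was higher and 2 lower in pDC than in CD11b+ cDC, near the shares of all genes (15.0% and 14.3%). Tlr7 gave 36594 in pDC against 8127 in CD11b+ cDC and 140 in CD8+ cDC, and Tlr3 gave 435, 2629 and 132701. Tlr13 was low in pDC, as Cgas was, at 131 against 19426 and 19796 in CD11b+ cDC and CD8+ cDC. Slc15a4, a transporter needed for endosomal signalling, was low in CD8+ cDC, as Sting1 was, at 10588 against 79605 in pDC and 51912 in CD11b+ cDC. In CD8+ cDC the lowest Sting1 and Tlr7 signals of the 3 arrays stood beside the highest Tlr3 signal.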

How the data were processed

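Total RNA (20 ng per cell type) was labelled and hybridised to Affymetrix mouse arrays. The authors deposited 1 linear intensity per probe set and array for 45101 probe sets, and the submitters' processing notes name MAS5. Sorted columns differ by 0.01 (mean absolute log2) from their mean. The step that equalised them is not stated in the labels, and folds are relative to the bulk of genes. Values below background (95th percentile of 87 silent receptor probe sets, on the highest array) were set to it before log2 was taken. Symbols are those of the platform annotation. It lists 1 gene for 34958 probe sets, several for 932, which were not used, and none for 9211. A call needs a 2-fold difference and carries no statistical test. The counting code alone was checked on simulated signals. Log2 differences from a gene's first and second probe set differed with an SD of 0.86, 0.89 and 0.74 for pDC and CD11b+ cDC, pDC and CD8+ cDC, and the conventional pair. The members and lists were chosen with earlier results of these data known. Every member was named, and of each list up to 4 genes per direction and pair with the largest differences, while other genes were added after their values were seen. Likeness was sought among genes at 4 times background. Python 3.11.15, numpy 2.4.6 and pandas 2.3.3 were used.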

Additional observations from a re-analysis of the deposited data

How the results depend on the processing

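The calls were repeated with background at the 99th and 80th percentile, without a floor, with other choices of probe set, with spike-in or quantile scaling and with 1.5-fold and 3-fold rules. Between the conventional subsets 3 members were called, but 6 with spike-in scaling, all higher in CD11b+ cDC, and 5 at 1.5-fold. Of all genes 20.1%, 49.3% and 36.4% were called in these settings. Spike-in scaling moved the median of all genes to -0.30 (log2, pDC minus CD11b+ cDC), 0.65 (pDC minus CD8+ cDC) and -0.95 (CD8+ cDC minus CD11b+ cDC). The share of calls toward the second cell type of each pair moved from 48.8%, 48.1% and 51.0% to 65.3%, 22.4% and 92.2%. Of 189 member differences under alternatives other than the 1.5-fold and 3-fold rules, 0 of those called turned sign. Of the same 189, 7 gained or lost a call, of which 5 concern Zbp1. Many of the 189 could hardly change. All members lay above background on every array, so the lower background left them unchanged. The deposited columns were already nearly equal before quantile scaling, and Ifih1 and Aim2 have 1 probe set each. At 3-fold, Dhx58 also lost its call between pDC and CD11b+ cDC, and Zbp1 between pDC and CD8+ cDC. At 1.5-fold both gained a call between the conventional subsets. For Ddx58 the log2 difference of pDC minus CD11b+ cDC was -5.74 as reported, -3.57 as the median over its probe sets and -4.59 with background at the 99th percentile. The lack of replicate arrays limits all values, and a difference near 2-fold, as for Dhx58, lies close to the disagreement between probe sets.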
